A study of Mus musculus with 12 samples.

Results

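The shaft of the tibia was compared between 8 mice that carried the Jrt allele of Col1a1 and 4 wild-type (WT) mice, which together are all 12 mice of the series. The Jrt mice were 4 Jrt;Sost-het and 4 Jrt;Sost-ko animals, taken as 1 group by their Col1a1Jrt/+ genotype, and every gene of the count matrix was considered. The question was which genes differed from WT in both Jrt groups, whatever the Sost genotype. The mice were males aged 8 weeks. Marrow had been flushed from the shafts, and 1 RNA library was sequenced per mouse. In the labels, Jrt;Sost-het mice appear as Col1a1Jrt/+, with Sost+/- stated only in the methods of the study, while Jrt;Sost-ko mice appear as Col1a1Jrt/+ Sost-/-. Every Jrt mouse therefore lacked at least 1 functional copy of Sost, and no mouse with the Jrt allele and both copies of Sost was measured. All mice were of a mixed FVB and C57BL6 background. The WT mice came from a parallel colony, so that genotype and colony cannot be told apart in any value given here.

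Type I collagen, the main protein of bone matrix, is a triple helix of 2 chains from Col1a1 and 1 chain from Col1a2. The Jrt mutation disrupts the splice donor after exon 9 of Col1a1, the exon is skipped, and the shortened chain causes a dominant disease that combines osteogenesis imperfecta (brittle bones) with features of Ehlers-Danlos syndrome (lax connective tissue). Sost encodes sclerostin, which osteocytes secrete to restrain Wnt signalling and thereby bone formation. In other models of the disease, misfolded collagen has been studied for stress of the endoplasmic reticulum, altered osteoblast maturation and excess TGF-beta signalling, and genes of these processes were followed here as lists.

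The sequence that the Jrt transcript lacks is shown because it is the lesion common to all 8 mice. Col1a1 (ENSMUSG00000001506) spans 94936224 to 94953042 on chromosome 11 of GRCm38, plus strand, and exon 9 is the coding exon at chr11:94940118-94940171. Capitals mark the 54 bases of exon 9, read 5′ to 3′ from the GENCODE M21 transcript, and lower case marks the 9 bases of the exons on either side.
Col1a1 exon 9: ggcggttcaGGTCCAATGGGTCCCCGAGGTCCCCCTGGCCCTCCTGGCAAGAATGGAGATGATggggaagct
The exon holds 18 codons and leaves no remainder when divided by 3, so that its loss keeps the reading frame. The deposited values are counts per gene, in which a transcript with or without exon 9 counts alike. The mutation itself can therefore not be seen in them.

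Between 24366061 and 37370099 counts fell on genes in the Jrt mice, and between 28737276 and 44418863 in the WT mice. The defining markers of bone cells were present in every mouse. Osteoblast Runx2 lay between 56.4 and 81.1 CPM (counts scaled by library size), osteocyte Dmp1 between 111 and 539 CPM and osteoclast Ctsk between 295 and 941 CPM. Blood cells of the marrow remained as well, with the erythroid Hbb-bs between 7609 and 15032 CPM. In such a mixed tissue, fewer cells of a type and less RNA per cell cannot be told apart. Tissues that are not bone varied between the mice, among them muscle, epidermis, cartilage and tendon. The 16 skeletal muscle genes together ranged from 0.0032% of all counts in mouse 4 of the Jrt;Sost-ko group to 3.19% in mouse 4 of the WT group. Epidermal genes were high in WT mice 3 and 4 alone, as set out below. For this reason, results that rest on these 2 WT mice are also given without them.

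No gene passed the test between Jrt and WT mice. Of 17245 genes tested with the quasi-likelihood test of edgeR, 0 were higher and 0 were lower at a Benjamini-Hochberg adjusted p under 0.05 (0% in each direction), and the smallest adjusted p was 0.999892. Accordingly, 0 genes fulfilled the criteria set for a change shared by both Jrt groups. At an unadjusted p under 0.05 there were 528 genes, which is 3.06% of those tested: 329 were higher in Jrt mice (1.91%) and 199 were lower (1.15%). P-values without any difference would on average give a share of 0.05, which is more than this. The test of limma-voom with sample quality weights also called 0 genes, with 1067 at an unadjusted p under 0.05, whereas DESeq2 called 2 higher and 23 lower genes (0.0848% of the 29478 genes to which it gave an adjusted p). In 22 of these 23 lower genes, WT mice 3 and 4 stood above all other mice. Most of the genes that DESeq2 called had not passed the filter on low counts before the edgeR test. Without that filter, edgeR again called 0 genes. Under DESeq2, 3 genes fulfilled the criteria for a shared change, namely F730311O21Rik, which was higher, and Wnt3 and Tmprss11f, which were lower. Wnt3 and Tmprss11f were among the 22 genes above and were not in the edgeR test. Their mean levels were 0.408 and 0.382 CPM in WT mice and 0.0037 and 0 CPM in Jrt mice. P-values here measure the spread between the mice of a group, with 1 library for each mouse.

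The intervals show how large a difference could have gone unseen. The median log2 fold change over all genes was -0.00078, 49.6% of genes lay above 0, and the median standard error was 0.12. For 15072 genes (87.4%), the 95% confidence interval of the fold change lay entirely within 2-fold in either direction. It lay within 1.5-fold for 11949 genes (69.3%). A change of more than 2-fold was thus outside the interval for most genes, while smaller changes could not be resolved for many of them.

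Taken separately, the groups gave nearly as few calls, and both used the same WT mice. Jrt;Sost-het against WT gave 0 called genes in the edgeR fit of all 3 groups (0%), with 416 genes (2.41%) at an unadjusted p under 0.05, while DESeq2 called 6. Jrt;Sost-ko against WT gave 1 called gene (0.00580%), which was Sost, and 823 genes (4.77%) at an unadjusted p under 0.05. The second smallest adjusted p in that contrast was 0.715, and DESeq2 called 16 genes.

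Sost was the targeted gene in the Jrt;Sost-ko mice. Its level was 28.0, 34.5, 70.2 and 27.1 CPM in Jrt;Sost-het mice 1 to 4, 0.569, 1.28, 0.506 and 0.328 CPM in Jrt;Sost-ko mice, and 50.2, 72.4, 62.0 and 28.5 CPM in WT mice. All 4 Jrt;Sost-ko mice lay far below the rest, and the Jrt;Sost-het mice overlapped with WT. The log2 fold change against WT was -6.29 in Jrt;Sost-ko mice and -0.41 in Jrt;Sost-het mice (unadjusted p = 0.293, edgeR), and the 2 Jrt groups differed from each other by -5.88. Sost therefore did not fulfil the criteria set for a shared change. The log2 fold change in Jrt;Sost-het mice had a standard error of 0.38, and mice 1 and 4 of that group lay below all WT mice. A lower level in this group could thus not be told from no change. Pooled, the log2 fold change of Sost was -1.40 with a standard error of 1.08.

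Col1a1, the mutated gene, was at 11599, 8946, 15156 and 24172 CPM in WT mice 1 to 4, and ranged from 13653 to 29922 CPM in Jrt mice around a median of 20374 CPM. WT mouse 4 reached into the upper part of the Jrt range, and the groups overlapped. The log2 fold change of Col1a1 was 0.49 with a 95% confidence interval from -0.12 to 1.10 (edgeR, unadjusted p = 0.104; exact permutation p = 0.0929). The fitted change was 0.67 in Jrt;Sost-ko and 0.28 in Jrt;Sost-het mice, each against the same WT mice. Its partner chain Col1a2 was at 16025, 12512, 20823 and 30411 CPM in WT mice and between 18790 and 36600 CPM in Jrt mice, around a median of 26506 CPM. The order of the mice was similar to that of Col1a1, and the log2 fold change was 0.43 (95% confidence interval from -0.11 to 0.97). These counts sum both alleles of Col1a1, and a fall of that total by more than 0.12 on the log2 scale lay outside the interval.

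The same direction was seen in all 15 collagens of bone and other fibrous matrix that were followed. None was called, and 0 had an unadjusted p under 0.05 beside 3.06% over all genes, but all 15 had a positive log2 fold change, with a median of 0.38 and a range from 0.03 for Col27a1 to 0.49 for Col1a1. Col5a2, a chain of the type V collagen that is built into type I fibrils, was at 696, 634, 985 and 1450 CPM in WT mice and from 937 to 1532 CPM in Jrt mice, with a log2 fold change of 0.41 (SE 0.22). For 11 of the 15 collagens the 95% interval lay within 2-fold, beside 87.4% of all genes. These genes share cells and libraries and are not independent of each other.

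**Figure D1:**
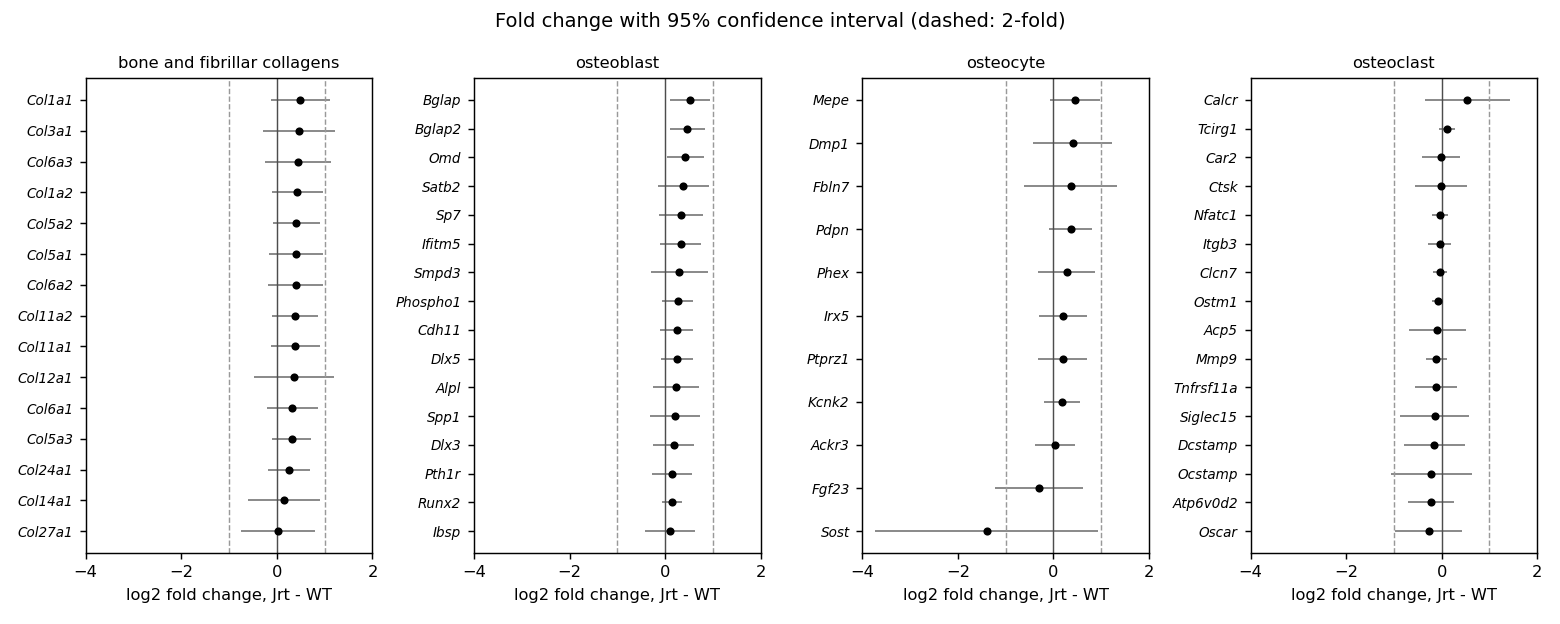
Log2 fold change of Jrt (8 mice) against WT (4 mice), on the horizontal axis, for each tested gene of 4 lists. Points are edgeR estimates, bars are 95% confidence intervals and dashed lines mark 2-fold. All 15 collagens and all 16 osteoblast genes lie right of 0, most with intervals that cross it, and 14 of 16 osteoclast genes lie left of it, but 12 of these 16 genes were above 0 when WT mice 3 and 4 were left out.

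Enzymes and chaperones that modify, fold and cross-link collagen showed small positive values. Of 34 such genes, 31 were above 0, with a median log2 fold change of 0.23. The sign was the same in both Jrt groups for 28 of them. Of the 34, 3 had an unadjusted p under 0.05, beside 3.06% over all genes. Plod2, which hydroxylates lysines of the collagen telopeptides, was at 71.6, 58.2, 123 and 146 CPM in WT mice and from 105 to 207 CPM in Jrt mice (median 152 CPM). WT mice 1 and 2 lay below all Jrt mice and WT mice 3 and 4 lay among them, with a log2 fold change of 0.60 (SE 0.26; edgeR, unadjusted p = 0.0400). Colgalt1, which adds galactose to hydroxylysine, was at 124, 118, 118 and 128 CPM in WT mice and from 123 to 163 CPM in Jrt mice, with a log2 fold change of 0.18 (SE 0.07). The third was Plod3 (log2 fold change 0.17), a further lysyl hydroxylase. Colgalt2, a gene that the study names and a relative of Colgalt1, had a log2 fold change of -0.09 (SE 0.43), with -0.87 in Jrt;Sost-ko and 0.41 in Jrt;Sost-het mice.

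Genes of the unfolded protein response, by which cells adapt to misfolded protein in the endoplasmic reticulum, had a median close to that of WT. Of 34 genes, 30 were above 0, but the median log2 fold change was 0.07, and for 32 of them the 95% interval lay within 2-fold. Hspa5, the main chaperone of the endoplasmic reticulum, had a log2 fold change of 0.16, Xbp1, a transcription factor of the response, 0.13, and Ddit3, which mediates cell death under stress, 0.10. Members with an unadjusted p under 0.05, beside 3.06% over all genes, were Pdia4 and Hsp90b1, both folding factors of the endoplasmic reticulum. Pdia4 was at 85.8, 83.6, 96.8 and 93.2 CPM in WT mice and from 91.9 to 133 CPM in Jrt mice, with Jrt;Sost-ko mouse 2 the highest and a log2 fold change of 0.22 (SE 0.09). Hsp90b1 was at 571, 580, 611 and 555 CPM in WT mice and from 598 to 769 CPM in Jrt mice, with a log2 fold change of 0.17 (SE 0.07). In both genes the groups overlapped by a few mice.

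Osteoblast genes were all above 0. The 16 genes had a median log2 fold change of 0.25, and 3 had an unadjusted p under 0.05, beside 3.06% over all genes. The 95% interval lay within 2-fold for all 16, beside 87.4% of all genes. Bglap, one of the genes for osteocalcin, a matrix protein of mature osteoblasts, was at 327, 361, 494 and 627 CPM in WT mice and from 479 to 852 CPM in Jrt mice (median 645 CPM), with a log2 fold change of 0.52 (SE 0.19). The log2 fold change of Bglap was 0.73 in Jrt;Sost-ko (unadjusted p = 0.00216, edgeR) and 0.27 in Jrt;Sost-het mice (unadjusted p = 0.171, edgeR), and the Jrt groups differed by 0.46 (unadjusted p = 0.0300, edgeR). Its near-identical neighbour Bglap2 had a log2 fold change of 0.46 (SE 0.17), and how the counting split reads between these copies is not known. In both, WT mice 1 and 2 were below every Jrt mouse, and WT mice 3 and 4 were not. Omd, a proteoglycan of mineralized matrix, was the third (log2 fold change 0.42). The transcription factors Runx2 and Sp7, which set the osteoblast fate, had log2 fold changes of 0.13 and 0.33, and neither was called.

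Of 11 osteocyte genes, 9 were above 0 when pooled, with a median of 0.21 (0.36 in Jrt;Sost-ko and 0.06 in Jrt;Sost-het mice). The 2 below 0 were Sost and Fgf23, a phosphate-regulating hormone (-0.30). Mepe, a phosphoprotein of the osteocyte matrix, was at 54.8, 77.8, 69.5 and 87.5 CPM in WT mice and from 67.2 to 156 CPM in Jrt mice. Its log2 fold change was 0.76 in Jrt;Sost-ko and 0.06 in Jrt;Sost-het mice, and 0.45 (SE 0.25) pooled. Pdpn, which is needed for the dendrites of young osteocytes, had a pooled log2 fold change of 0.36 (SE 0.21).

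Osteoclast genes had no stable direction. Of 16 genes, 14 were below 0, with a median log2 fold change of -0.09 and a range from -0.27 for Oscar to 0.54 for Calcr, and 0 had an unadjusted p under 0.05. Without WT mice 3 and 4, 12 of the 16 were above 0 and the median was 0.15, and without WT mouse 4 alone it was 0.03. Acp5 (tartrate-resistant acid phosphatase) and Ctsk (cathepsin K), both enzymes of resorption, had log2 fold changes of -0.09 and -0.01. Members of smallest p were Ostm1, a subunit of the chloride transporter of the ruffled border (-0.08), and Tcirg1, a subunit of its proton pump (0.11). Of the 6 signals that regulate osteoclasts, 5 were above 0, with a median of 0.09: Tnfsf11 (RANKL), which drives their formation, had a log2 fold change of -0.08, its decoy receptor Tnfrsf11b (osteoprotegerin) 0.17, Il34 0.25 and Sfrp1 0.13.

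Wnt and TGF-beta responses had small medians that moved with single WT mice. Of 15 tested Wnt target genes, 12 were above 0, with a median of 0.08, and only 6 had the same sign in both Jrt groups. This median was -0.03 without WT mouse 2 and 0.26 without WT mouse 4. Axin2, a feedback inhibitor of the pathway, had a log2 fold change of 0.08. The smallest p were those of Tcf7, a transcription factor of the pathway (0.23), and Bambi, a decoy receptor for TGF-beta family ligands that is also a Wnt target (0.28). Of 18 TGF-beta response genes, 16 were above 0, with a median of 0.14, which likewise was 0.01 without WT mouse 2 and 0.26 without WT mouse 4. Skil and Smad6, both inhibitors of the pathway, had log2 fold changes of 0.16 and 0.27. None of these genes had an unadjusted p under 0.05. The small leucine-rich proteoglycans, which bind collagen fibrils, had a median of 0.33 over 8 genes, with Lum at 0.41 and Ogn at 0.30. Matrix metalloproteinases and their inhibitors had a median of 0.15 over 12 genes, with Mmp23 at 0.34 and Mmp16 at 0.32.

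**Figure D2:**
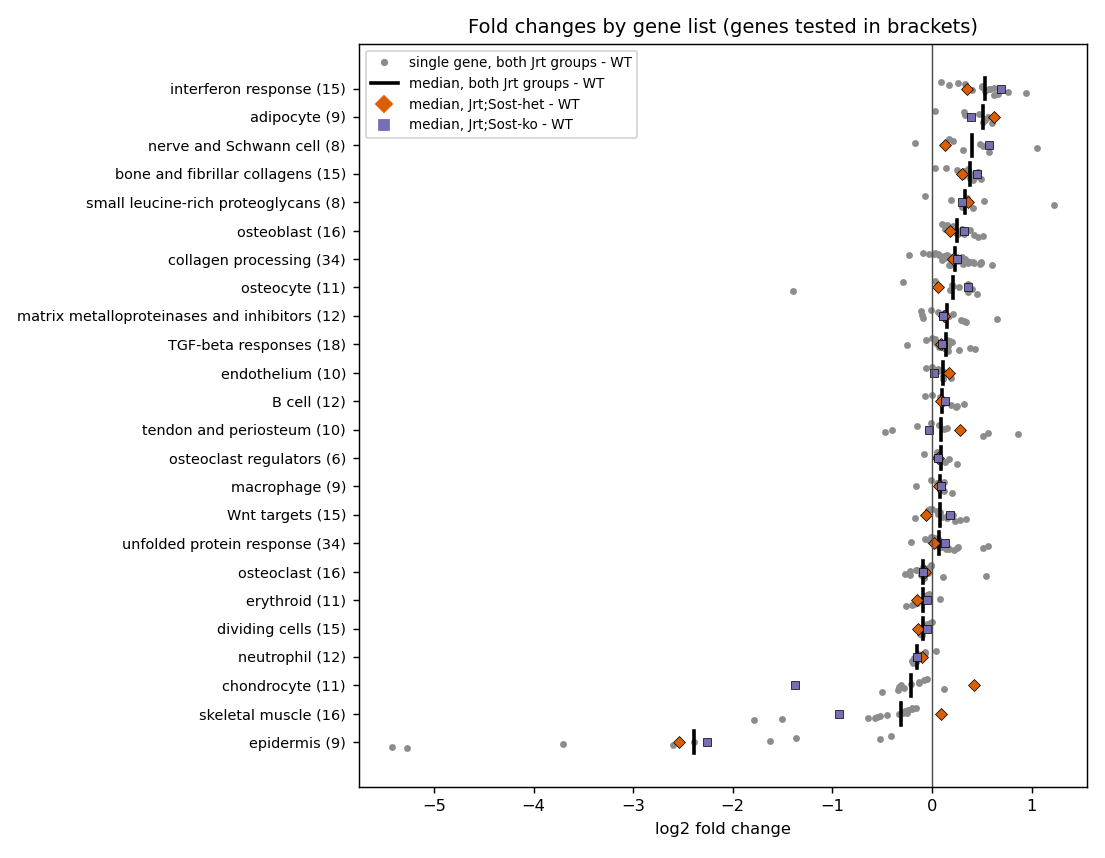
Log2 fold changes against WT for the tested genes of 24 lists, with the number tested in brackets. Grey points are single genes and black bars their median for both Jrt groups together; diamonds (Jrt;Sost-het) and squares (Jrt;Sost-ko) are medians of each group against the same WT mice. Most medians lie within 0.5 of 0, and the epidermis list stands apart at -2.39.

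WT mice 1 and 2 set much of what was positive in bone genes. In the collagens, the summed level was 31858.9, 25053.7, 42286.8 and 64522.1 CPM in WT mice 1 to 4, and from 38445.3 to 76302 CPM in Jrt mice. Mice 1 and 2 lay below every Jrt mouse, and mice 3 and 4 lay among them. Against WT mice 1 and 2 alone, the collagen median rose from 0.38 to 0.91, that of collagen processing from 0.23 to 0.62 and that of osteoblast genes from 0.25 to 0.71. In this comparison, 12 of 15 collagens were higher in all 8 Jrt mice than in both WT mice, beside 7.73% of all genes. So were 25 of 34 processing genes and 13 of 16 osteoblast genes, while 5.67% of all genes were lower in all 8. WT mice 1 and 2 already lay below every Jrt mouse in the summed level of each of these lists. The counts therefore follow largely from the choice of mice and are no separate support. With WT mice 3 and 4 left out, edgeR called 0 genes, and 3126 genes had an unadjusted p under 0.05. The muscle list moved more than any of these, from -0.31 to 2.64, and WT mouse 2 had a summed muscle level of 247.5 CPM where the Jrt median was 8438.2 CPM. Jrt;Sost-ko mouse 4, with the lowest muscle level, 31.9 CPM, had a summed collagen level of 45301.5 CPM. With the muscle level as a covariate in the fit, the collagen median was 0.47 and the osteoblast median 0.29, with 0 genes called by edgeR and 1000 genes at an unadjusted p under 0.05. Other cell types moved in the same comparison. Of the endothelial genes, 6 of 10 were higher in all 8 Jrt mice than in WT mice 1 and 2 (median 0.30). Of the blood lineages, 4 of 11 erythroid genes (median -0.35) and 3 of 12 neutrophil genes (median -0.32) were lower in all 8. Of 15 genes of dividing cells, 10 had a negative value with an unadjusted p under 0.05, and the median was -0.29. The summed erythroid level was 30939.9, 27950.9, 20946.5 and 17289 CPM in WT mice 1 to 4, and from 15917.9 to 25977.9 CPM in Jrt mice. The WT mice low in collagen RNA were thus those high in erythroid RNA, but the Jrt mice were mixed in this. Jrt;Sost-ko mouse 2 was at 25436.5 CPM erythroid and 70776.1 CPM collagen, and Jrt;Sost-het mouse 4 at 15917.9 and 42003.5 CPM. Jrt;Sost-ko mice 3 (16784.8 and 76302 CPM) and 4 (25977.9 and 45301.5 CPM) had the order of the WT mice. The part of muscle and of marrow cells in the collagen values was not tested further.

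**Figure D3:**
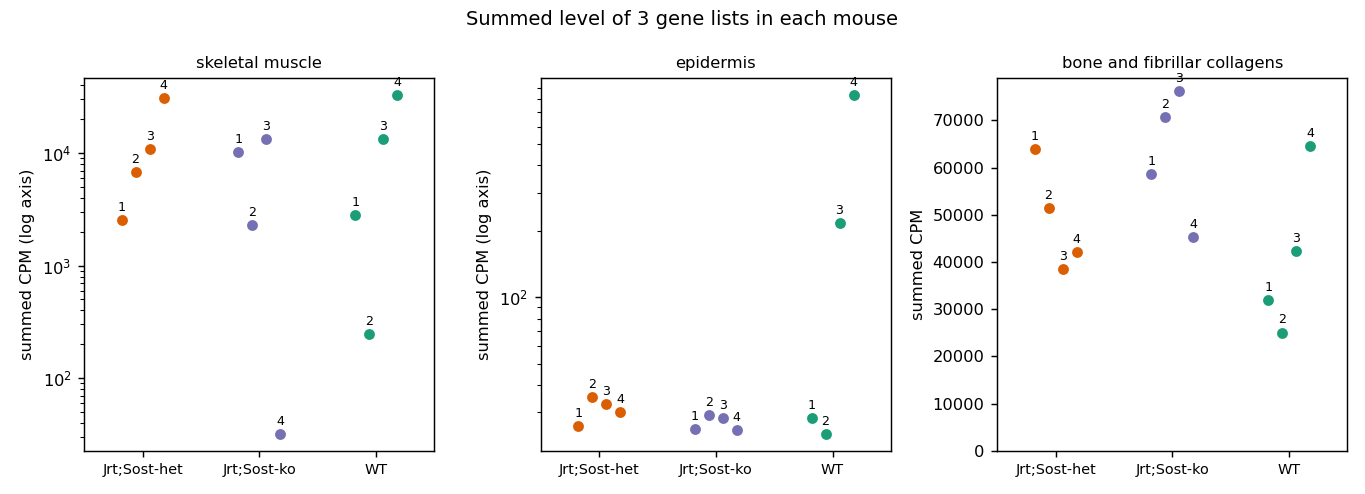
Summed CPM of the skeletal muscle, epidermis and collagen lists in each mouse (numbers mark the mouse within its group; the first 2 vertical axes are logarithmic). Muscle varied in all 3 groups, epidermal genes were high in WT mice 3 and 4 alone, and for collagens WT mice 1 and 2 lay below every Jrt mouse.

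The lowest unadjusted p-values belonged to genes of the skin. Krt10, a keratin of the suprabasal epidermis, was at 1.34, 1.40, 48.6 and 208 CPM in WT mice 1 to 4 and between 1.49 and 2.09 CPM in Jrt mice. Lor (loricrin, of the cornified envelope) was at 0.0495, 0.547, 21.7 and 56.7 CPM in WT mice and between 0.263 and 0.639 CPM in Jrt mice. WT mice 1 and 2 were at or near the level of the Jrt mice in both, and the high WT mean came from mice 3 and 4. The log2 fold changes were -5.27 for Krt10 (SE 0.97; edgeR, unadjusted p = 0.000118) and -5.42 for Lor (SE 1.04). An exact permutation test over all arrangements of the mice gave p = 0.182 for Krt10 and p = 0.162 for Lor. Of the 10 lower genes of smallest p, Dsp (desmoplakin, of desmosomes), Dmkn, Krtdap and Perp showed the same 2 high mice, and so did Ly6g6c, which was at 0.915, 1.54, 2.60 and 6.98 CPM in WT mice. Over the 16 epidermal genes, the summed level was between 25.0 and 35.2 CPM in Jrt mice and 28.2, 23.9, 218 and 832 CPM in WT mice. The defining keratins Krt1, Krt5 and Krt14 reached no more than 0.346 CPM in any Jrt mouse or in WT mice 1 and 2. They were at 0 in 3, 4 and 6 of the 12 mice, respectively. All 9 tested epidermal genes had a negative log2 fold change. Without WT mice 3 and 4 the values for Krt10 and Lor were 0.29 and 0.68, and the median of the list was 0.16. Krt10 lies on chromosome 11, 4.45 Mb from Col1a1.

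The remaining lower genes were Gm15564, Mtus2 and Gm10800. Gm15564, an antisense transcript, was at 2.57, 2.22, 67.1 and 2.63 CPM in WT mice and between 0.905 and 1.84 CPM in Jrt mice. The groups did not overlap, yet WT mouse 3 alone set the log2 fold change of -3.73 (SE 0.79): without it the value was -0.82. Mtus2, which encodes a protein of microtubules, was at 1.01, 1.23, 1.68 and 1.63 CPM in WT mice and between 0.676 and 0.964 CPM in Jrt mice, with a log2 fold change of -0.77 (SE 0.17). Gm10800 overlapped between the groups and had its highest level, 6.09 CPM, in WT mouse 4.

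In 29 genes (0.168%), all 8 Jrt mice lay on 1 side of all 4 WT mice, with 18 higher (0.104%) and 11 lower (0.0638%). Abi3, an adaptor protein of immune cells that regulates actin, was at 18.7, 19.2, 18.5 and 18.4 CPM in WT mice and between 20.1 and 24.3 CPM in Jrt mice. The spread was small in both groups, and the log2 fold change was 0.25 (SE 0.06; edgeR, unadjusted p = 0.000984). It was 0.32 in Jrt;Sost-ko and 0.18 in Jrt;Sost-het mice, which differed from each other by 0.14 (unadjusted p = 0.0323, edgeR). F730311O21Rik, a long non-coding RNA, was at 4.16, 4.52, 3.92 and 3.54 CPM in WT mice and between 4.77 and 6.0 CPM in Jrt mice. Its log2 fold changes were 0.44 and 0.45 in the Jrt groups and 0.45 (SE 0.10) pooled, and it was 1 of the 2 genes that DESeq2 called higher (adjusted p = 0.0474). Wdr78, a part of the dynein motor of cilia, was at 2.70, 2.60, 3.07 and 2.82 CPM in WT mice and between 3.30 and 4.03 CPM in Jrt mice, with a log2 fold change of 0.39 (SE 0.10). Cd300ld, an immune receptor of myeloid cells, was at 4.35, 5.92, 4.82 and 4.26 CPM in WT mice and between 6.01 and 6.78 CPM in Jrt mice, with 0.37 (SE 0.10). Snora2b, a small nucleolar RNA, was near the limit of counting, at no more than 0.194 CPM in WT mice and at least 0.225 CPM in Jrt mice. All 5 of these higher genes had an adjusted p of 0.999892 in edgeR.

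**Figure D4:**
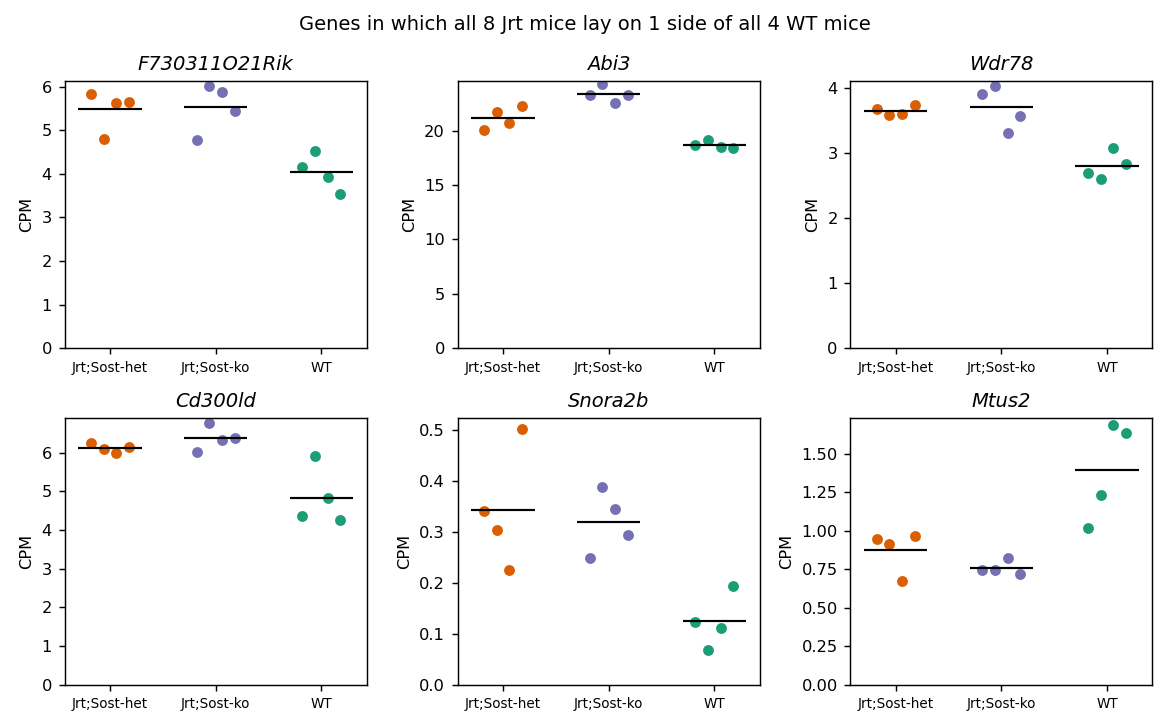
CPM (linear axes from 0) of the named genes in which the Jrt and WT mice did not overlap, leaving out Gm15564; points are mice and lines group means. Abi3, F730311O21Rik, Wdr78, Cd300ld and Snora2b were higher and Mtus2 lower in all 8 Jrt mice.

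The other higher genes of smallest p overlapped between the groups. Gm37261 had the largest log2 fold change among them, 3.05 (SE 0.84), but was at 0.227, 3.42, 0.375 and 0.293 CPM in Jrt;Sost-het mice 1 to 4 and from 2.40 to 3.73 CPM in Jrt;Sost-ko mice. A single Jrt;Sost-het mouse and the 4 Jrt;Sost-ko mice thus stood above WT, which was between 0.0831 and 0.376 CPM. Grik2, a kainate receptor subunit, had a log2 fold change of 1.01 (SE 0.27), Gm5107 1.15 (SE 0.29), Tmem198 0.57 (SE 0.15) and Adcy5, an adenylyl cyclase, 0.35 (SE 0.10).

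Of the other genes that the study names, Pla2g5, a secreted phospholipase, had the largest pooled log2 fold change. It was at 8.88, 9.41, 14.2 and 15.2 CPM in WT mice, 17.2, 18, 14.8 and 13.8 CPM in Jrt;Sost-het mice, and 25.4, 27.2, 22.4 and 20.8 CPM in Jrt;Sost-ko mice. All Jrt;Sost-ko mice were above all other mice, and Jrt;Sost-het mice overlapped with WT. The pooled log2 fold change was 0.74 (SE 0.21; edgeR, unadjusted p = 0.00372; exact permutation p = 0.0202). It was 1.01 in Jrt;Sost-ko and 0.42 in Jrt;Sost-het mice, and the Jrt groups differed by 0.58 (unadjusted p = 0.00643, edgeR). Tex15 had a pooled log2 fold change of -0.18 (SE 0.16), with -0.46 in Jrt;Sost-ko and 0.06 in Jrt;Sost-het mice. Pla1a, a phospholipase of phosphatidylserine, had 0.06 (SE 0.38) pooled, with values of opposite sign in the Jrt groups (0.53 where Sost was heterozygous and -0.64 where it was absent).

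Asking only for an unadjusted p under 0.05 and the same sign in both groups left 110 genes (0.638%), 68 higher and 42 lower. This count rests on shared WT mice, and in 24 of the 42 lower genes WT mice 3 and 4 stood above all other mice. The groups did not overlap in 17 of the 110, with 12 higher and 5 lower. In 2 of the 110, Abi3 and Pla2g5, the Jrt groups themselves differed at an unadjusted p under 0.05.

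Both Jrt groups carry a stretch of chromosome 11 around the Jrt allele, and Sost lies on the same chromosome from 101962458 to 101967015 (GRCm38, minus strand). Within 10 Mb of the start of Col1a1, 316 genes other than Col1a1 and Sost were tested, and edgeR called 0. Of these, 16 (5.06%) had an unadjusted p under 0.05, beside 3.06% over all genes. The share near Col1a1 was close to the 0.05 that p-values without any difference would give. Whole chromosomes ranged from 1.84% (chromosome 18) to 4.08% (chromosome 12). The count near Col1a1 depended on single mice. It was 8 without WT mouse 1 (494 over all genes), 9 without WT mouse 3 (430), and 10 without mouse 1 of the Jrt;Sost-het group (458) or mouse 3 of the Jrt;Sost-ko group (459). Without WT mouse 4 it was 30, where 1702 of all genes had an unadjusted p under 0.05. DESeq2 also covered genes outside the 316. It called 2 genes within 10 Mb, Krt10 and Wnt3, beside 0.0848% of all genes to which it gave an adjusted p. Wnt3 was not among the 316. In both genes, WT mice 3 and 4 stood above all other mice. In edgeR, the share with an unadjusted p under 0.05 was 6.38% within 5 Mb (9 of 141 genes) and 3.72% within 20 Mb (21 of 565). Directions were even, with 8 of the 16 higher and 8 lower. Abi3, 0.91 Mb from Col1a1, was the one gene without overlap (0.316% of the 316, beside 0.168% over all genes). Further members were Ikzf3, a transcription factor of lymphocytes (log2 fold change 0.38, 3.61 Mb away), Hoxb5 (-0.65, 1.37 Mb) and Tbx2 (0.37, 9.10 Mb to the other side). The median log2 fold change of the 316 genes was -0.012. Whether linked FVB or C57BL6 sequence contributed was not tested, since the files hold no genotypes.

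**Figure D5:**
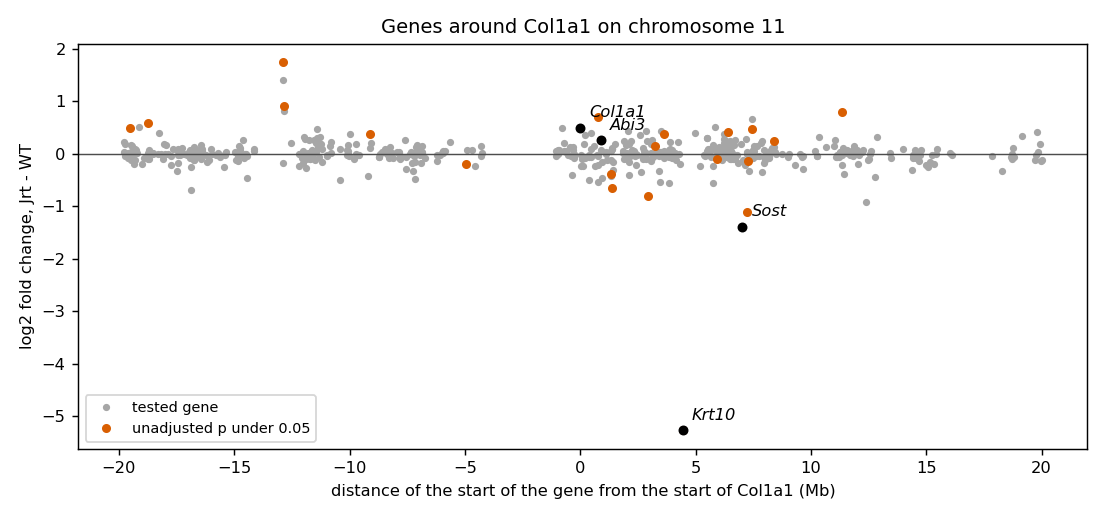
Log2 fold change of Jrt against WT for genes on chromosome 11 by their distance from the start of Col1a1 in Mb. Orange points had an unadjusted p under 0.05 and none was called; Krt10, at -5.27, was high in WT mice 3 and 4 alone, and Abi3, at 0.25, was the one gene without overlap within 10 Mb.

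Among the remaining lists of marrow, vessel and nerve cells, those of adipocytes and nerve had the largest medians. The 9 adipocyte genes were all above 0, with a median of 0.51, and 7 had the same sign in both Jrt groups. Cfd (adipsin) was at 137, 76.8, 130 and 177 CPM in WT mice and between 135 and 340 CPM in Jrt mice (log2 fold change 0.61, SE 0.26), and Plin1, which coats fat droplets, had a log2 fold change of 0.51 (SE 0.22). Both overlapped between the groups, with an unadjusted p under 0.05, beside 3.06% over all genes. B cell genes had a median of 0.10, with 11 of 12 above 0. Of the 12, 2 had an unadjusted p under 0.05, beside the same 3.06%, among them the surface receptor Cd22 (0.24, SE 0.09). Macrophage genes had a median of 0.08 (Adgre1 at 0.20, C1qb at 0.12) and endothelial genes one of 0.11 (Eng at 0.11, Emcn at 0.19). Erythroid genes had a median of -0.09 (0.05 without WT mouse 1), with Hba-a2 at -0.26 and the near-identical Hba-a1 at -0.20. Neutrophil genes had a median of -0.15, with Elane at -0.19 and Mpo at -0.16, and genes of dividing cells one of -0.09, with Cdk1 at -0.12 and Aurkb at -0.10. Nerve and Schwann cell genes had a median of 0.40, with the myelin gene Pmp22 at 0.57. None of the genes of these last 6 lists had an unadjusted p under 0.05.

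Tissues that border the shaft varied too widely for a small difference to be seen. Cartilage genes had a median of -0.21 over 11 genes, but -1.38 in Jrt;Sost-ko and 0.43 in Jrt;Sost-het mice, and 0 of the 11 intervals lay within 2-fold. Col10a1, the collagen of hypertrophic cartilage, ranged from 7.26 to 621 CPM in Jrt mice and from 0.0684 to 581 CPM in WT mice (log2 fold change -0.50, SE 1.14). Matn1 had a log2 fold change of -0.34 (SE 1.26). Muscle genes had a median of -0.31 over 16 genes, with no interval within 2-fold, and the slow and fast myosins Myh7 and Myh2 had -1.79 (SE 1.38) and -1.51 (SE 1.2). Tendon and periosteum genes had a median of 0.09 over 10 genes (-0.03 without WT mouse 2), with Tnmd (tenomodulin) at 0.86 (SE 0.56) and Dpt (dermatopontin) at 0.51 (SE 0.32).

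Interferon-response genes were all above 0, with a median of 0.54 over 15 genes, but 1 mouse stood out. Oas1a, a sensor of double-stranded RNA, was at 39.6 CPM in Jrt;Sost-ko mouse 1, between 10.1 and 18.1 CPM in the other Jrt mice, and at 9.99, 17.1, 12.3 and 6.23 CPM in WT mice. Its log2 fold change was 0.66 (SE 0.34). Ifi27l2a was the one member with an unadjusted p under 0.05, beside 3.06% over all genes. It was at 22.4, 35.8, 29.2 and 26.0 CPM in WT mice and between 30.5 and 64.0 CPM in Jrt mice, with a log2 fold change of 0.62 (SE 0.19; exact permutation p = 0.0121). Again the highest was Jrt;Sost-ko mouse 1, and without this mouse the median of the list was 0.18. WT mouse 2 lay above the 2 lowest Jrt mice.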

How the data were processed

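Gene-level RNA-seq counts of 12 tibia shafts were analysed, 4 per group. Read pairs were aligned by the authors with STAR against GRCm38; the submitters' processing notes also name bcl2fastq 2.20, Cufflinks, Cuffdiff and DESeq, and the counting tool and its strand setting are not given in the sources used here. The deposited matrix holds raw counts, without normalization, for 47069 genes. The files of single mice, the authors' comparison tables (log2 fold changes and p-values) and 96 columns of values per mouse in those tables were not used. Positions come from GENCODE M21 (98.8% of identifiers matched).

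In R 4.3.3, edgeR 4.0.16 (filterByExpr, TMM, glmQLFit and glmQLFTest with default settings, Benjamini-Hochberg adjusted p under 0.05) compared 8 Jrt with 4 WT mice without covariates, and a fit of 3 groups gave each Jrt group against WT. A shared change needed an adjusted p under 0.05, an unadjusted p under 0.05 with the same sign in both Jrt groups and no overlap of CPM between Jrt and WT mice. The edgeR standard error was approximated as the absolute log2 fold change divided by the square root of the F statistic. Confidence intervals used this standard error and the degrees of freedom of the fit. Log2 CPM for exact two-sided permutation tests had a prior count of 2. DESeq2 1.42.0, limma-voom (limma 3.58.1), a surrogate variable (sva 3.50.0), other scaling factors, filters, covariates and omitted mice were alternatives. Scripts were tested on simulated data. Within groups, 18 pairs of mice differed by a chi-square of at least 25.8 per degree of freedom, so that no library was a repeat.

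The comparison, the 24 gene lists (340 of 344 genes found in the matrix) and the tests were chosen with earlier results of these data known, and lists were described by counts and medians without a set test. Named are Col1a1, Col1a2, Sost, 4 genes that the study names, the 10 genes of smallest p per direction (none being called) and the 2 members of smallest p per list. The other genes, named for their function or their place in a count, were chosen after their values were seen. Some genes that this rule names are not reported here.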

Additional observations from a re-analysis of the deposited data

Results flagged for a closer look

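Within the 8 Jrt mice and the 4 WT mice, each named gene and each list was searched for a single mouse far from the rest, by the gap from the extreme mouse to its nearest neighbour as a share of the whole range. Of 192 groups searched, 22 passed the 95% limit of Dixon's test, where chance alone gives about 9.6; many of the genes share a mouse and are not independent. The widest gap was that of Gm15564 in WT mice (0.994), in which WT mouse 3 was at 67.1 CPM and the others at no more than 2.63 CPM. Other gaps in WT mice were those of Matn1 (0.912, WT mouse 4 at 9.58 CPM), Sfrp1 (0.905, WT mouse 1 at 7.94 CPM) and Elane (0.854, WT mouse 4 at 506 CPM).

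In Jrt mice, Jrt;Sost-ko mouse 4 was the extreme in Cdk1 (0.691), Aurkb (0.55), Sfrp1 (0.528), Ogn (0.532) and Eng (0.628), and in the lists of dividing cells (0.700) and skeletal muscle (0.588); it was highest in the genes of dividing cells and lowest in the others. Jrt;Sost-ko mouse 2 was highest in the folding factors Pdia4 (0.603) and Hsp90b1 (0.572) and in the unfolded protein response (0.545). Jrt;Sost-ko mouse 1 was highest in Oas1a (0.728) and in the interferon response (0.694). The cartilage genes Col10a1 (0.770) and Matn1 (0.787) were highest in Jrt;Sost-het mouse 1, and Myh2 (0.645) in Jrt;Sost-het mouse 4. The lists of osteoclast genes (0.546), TGF-beta responses (0.620) and matrix metalloproteinases (0.532) each had 1 Jrt mouse apart from the rest as well.

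The change of Sost against WT differed between the Jrt groups by -5.88 on the log2 scale in the edgeR test of the 2 groups, the one gene called in that test. The cause of the other gaps was not tested.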

How the results depend on the processing

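No paired analysis was possible because the labels give mouse numbers that the groups do not share. Under 24 alternatives, the count of 0 called genes held except in 3: DESeq2 called 2 higher and 23 lower genes (3 shared changes, 6 members of lists, 2 genes near Col1a1, 16 genes in Jrt;Sost-ko and 6 in Jrt;Sost-het against WT), a surrogate variable 1 lower gene (Krtdap, 1 list member), and the mean of both groups in the 3-group fit 1 lower gene (Sost, 1 list member). Genes with an unadjusted p under 0.05, 528 in the reported fit, numbered 907 with DESeq2, 1067 with limma-voom, 1360 without a filter, 1000 with muscle as covariate, 1018 with a surrogate variable and 3126 without WT mice 3 and 4. Leaving out single mice gave 395 to 1702, the highest without WT mouse 4. With all 12 mice but without a filter, 39 genes near Col1a1 had an unadjusted p under 0.05. Without WT mice 3 and 4, 2309 genes did not overlap, and 63 genes near Col1a1 had an unadjusted p under 0.05. In the same setting, 6 genes were called in Jrt;Sost-ko against WT: Sost, Pla2g5, Bglap, Bglap2, Serpinf1 and Sema3b. Leaving out single mice gave 36 to 223 genes without overlap, 8 to 30 near Col1a1 and 1 to 2 calls in Jrt;Sost-ko against WT (Gm37261 the second, without Jrt;Sost-het mouse 2). Of 1713 log2 fold changes of named genes under alternatives, 27 turned sign, in 9 genes, all with intervals across 0 apart from the epidermal genes. Without WT mice 3 and 4 these were Krt10 (0.29), Lor (0.68), Perp (0.13), Myh7 (5.59), Myh2 (2.67), Colgalt2 (0.55), Col10a1 (1.24) and Matn1 (1.91). With muscle as covariate they were Colgalt2 (0.039), Col10a1 (0.16) and Matn1 (0.29), with a surrogate variable Col10a1 (0.32) and Matn1 (0.52), with limma-voom Pla1a (-0.18), Col10a1 (0.999) and Matn1 (0.29), and in the 3-group fit Pla1a (-0.057). Leaving out single mice moved Colgalt2 between -0.36 and 0.19, Pla1a between -0.18 and 0.28, Col10a1 between -1.40 and 0.86 and Matn1 between -1.81 and 2.21. Of 480 list medians, 12 moved beyond the spread between mice, 10 of them without WT mice 3 and 4 and the others without WT mouse 4 (osteocyte 0.54, epidermis -1.12). With single mice left out, the collagen median lay between 0.22 and 0.71, the osteoblast median between 0.12 and 0.50 and the muscle median between -0.91 and 0.74. The cause of these movements was not tested. At 4 WT mice, 2 of them apart, changes below 1.5-fold could not be resolved for many of the tested genes.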

Other observations

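A few genes outside the lists were seen among the 110 that had an unadjusted p under 0.05 and the same sign in both Jrt groups; they were chosen after their values were seen, and none was called by edgeR. Scd1, a desaturase of fatty acids, had a mean of 925 ± 244 CPM (SD, n = 8) in Jrt and 580 ± 104 CPM (SD, n = 4) in WT mice, with a log2 fold change of 0.67 (SE 0.21) and values of 0.69 in Jrt;Sost-ko and 0.65 in Jrt;Sost-het mice. Pnpla3, a lipase of fat droplets, had a log2 fold change of 1.08 (SE 0.32), and Thrsp, a regulator of fatty acid synthesis, 0.97 (SE 0.35). In each of these 3 genes the groups overlapped, and the edgeR adjusted p was 0.999892.

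Gene segments of immunoglobulins were also among them. Ighv5-15, a heavy-chain variable segment, was at no more than 0.224 CPM in WT mice and at least 0.227 CPM in Jrt mice, with a log2 fold change of 1.33 (SE 0.39). Such segments are alike in sequence and differ between mouse strains, so that their counts are uncertain; the part of strain was not tested.

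Further genes without overlap between the groups, none of them called, were Crebzf, Sptssa, Ms4a7 and Myo5b. Crebzf, a regulator of the cyclic AMP response factor family, was between 83.6 and 93.8 CPM in WT mice and between 95.7 and 105 CPM in Jrt mice (log2 fold change 0.15, SE 0.04). Sptssa, a subunit of the enzyme that starts sphingolipid synthesis, was between 64.2 and 65.6 CPM in WT mice and between 55.9 and 62.3 CPM in Jrt mice (-0.14, SE 0.04). Ms4a7, a membrane protein of macrophages, had a log2 fold change of 0.34 (SE 0.09), and Myo5b, a motor of membrane recycling, one of -0.83 (SE 0.21), at 0.639 to 1.46 CPM in Jrt and 1.57 to 2.20 CPM in WT mice.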
